A study of Mus musculus with 24 samples.

Results

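Alveolar type 2 (AT2) organoids with a deletion of a gene cluster that encodes let-7a, let-7d and let-7f microRNAs were compared with control organoids at day 14 of culture. The comparison rests on 4 of the 24 libraries of the series, 2 per genotype, chosen by their labels, and it covers 12406 of 24970 gene symbols. Control organoids came from Sftpc-CreER/+; R26-tdT/+ mice, and knockout organoids from mice of the genotype let7afd-/-;Sftpc-CreER/+; R26-tdT/+, so the Cre driver and the tdTomato reporter were shared by both. All mice had received tamoxifen, which activates CreER, and the cells were taken into culture in AMM media after 6 days of it. Sftpc-CreER acts in cells that express surfactant protein C, so the deletion is aimed at AT2 cells and their progeny. How complete and how specific the deletion was in these cells was not tested. The series also profiled freshly sorted AT2 cells, 3 libraries per genotype and each a pool of 3 mice, and whole lungs. For the organoid libraries no number of pooled mice is recorded, and how independent the 2 libraries of a genotype are was not tested. The question is which transcripts differ between let-7-deleted and control AT2 cells once the cells have grown, divided and begun to differentiate in culture.

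AT2 cells make pulmonary surfactant and act as stem cells of the alveolus. In organoid culture they divide and can give rise to flat alveolar type 1 (AT1) cells, through an intermediate state marked by Krt8, and under some culture conditions they take on airway or basal-like features. MicroRNAs of the let-7 family pair through their seed, the bases near the 5′ end, with sites in 3′ untranslated regions (UTRs) and lower the level and translation of those transcripts. The family is best known for restraining growth-promoting and fetal genes such as Hmga2, Lin28b and the Igf2bp genes.

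The 3 microRNAs of the deleted cluster are shown because their shared seed defines the sites searched for below. The capitals mark bases 2 to 8 (RefSeq, GRCm38.p6, 5′ to 3′).
let-7a: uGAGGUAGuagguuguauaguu
let-7f: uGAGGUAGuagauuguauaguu
let-7d: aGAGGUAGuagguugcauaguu
The 3 hairpins lie within 2261 bases at chr13:48536012-48538272 on the minus strand (GRCm38). Of 13 let-7 family loci listed by RefSeq, 12 carry the same seed, so family members with an identical seed remain encoded elsewhere in the knockout genome. One of them, Mirlet7f-2 on chrX, encodes the same mature let-7f sequence as Mirlet7f-1 of the cluster. All 4 libraries list the hairpin genes (Mirlet7d, Mirlet7a-1 and Mirlet7f-1) at 0 TPM. Mature microRNAs carry no poly(A) tail and are missed by poly(A) selection, and the genotype label therefore goes unchecked here.

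TPM are transcript abundances scaled by transcript length and to the same total in every library. They keep no read numbers, and library depth is therefore unknown. Genes at 1 TPM or more numbered 12271 and 12481 in the controls and 11948 and 11925 in the knockouts. Of the markers of the labelled cell type, Sftpc, which encodes surfactant protein C, stood at 28199 and 6935 TPM in the controls and at 59558 and 51384 TPM in the knockouts. The epithelial adhesion gene Cdh1, picked after its values were seen, stood at 403 and 356 TPM in the controls and at 382 and 351 TPM in the knockouts.

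Control library 2 stood apart from the other 3 libraries. On the log2(TPM + 1) scale, 884 of the tested genes (7.13%) differed by more than 2-fold between the 2 controls, against 41 genes (0.33%) between the 2 knockouts. Control 1 differed from the knockouts at 951 and 1021 genes, hardly more than from control 2, whereas control 2 differed from them at 2133 and 2384 genes. The 4 surfactant protein transcripts Sftpc, Sftpb, Sftpa1 and Sftpd took 4.28% of all TPM in control 1, 1.26% in control 2, and 7.71% and 6.99% in the knockouts. For this reason the log2 difference from control 1 alone is given beside most lists.

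Of the 12406 genes tested with limma on log2(TPM + 1), 75 passed at an adjusted p under 0.05 (0.605%), 27 of them higher (0.218%) and 48 lower (0.387%) in the knockouts. Quantile normalization gave 22 higher and 25 lower genes, and without the filter on low values 0 passed. Of the 75 genes, 61 still passed with a pseudocount of 0.1, 65 with median-ratio scaling and 47 with quantile normalization, so many lie close to the threshold. Krt5, Padi4, Scgb3a1, Cxcl17, Bhlhe41 and Map3k1, described below, were among those that no longer passed with median-ratio scaling (adjusted p 0.0523 to 0.0554). At an unadjusted p under 0.05 there were 4527 genes (36.5%). The median log2 difference over all tested genes was 0.06, and 0.03 against control 1 alone. None of the 75 genes overlapped between the genotypes, and 71.7% of all tested genes did not. Their direction against either control alone was thereby fixed and gives no further support. The log2 size was at least 1.18 against control 1 and at least 1.27 against control 2. Without control 1, 3821 genes were higher and 2622 lower, and without control 2, 1625 were higher and 1490 lower. In those fits the spread came from the 2 knockouts alone, which were close together, so passing there gives no support to single genes. Without knockout 1 or without knockout 2, no gene passed (0 genes by limma, 1644 and 1273 at an unadjusted p under 0.05), since the spread then came from the 2 controls alone. A low count of calls therefore does not show that other genes were alike in the 2 genotypes.

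**Figure D1:**
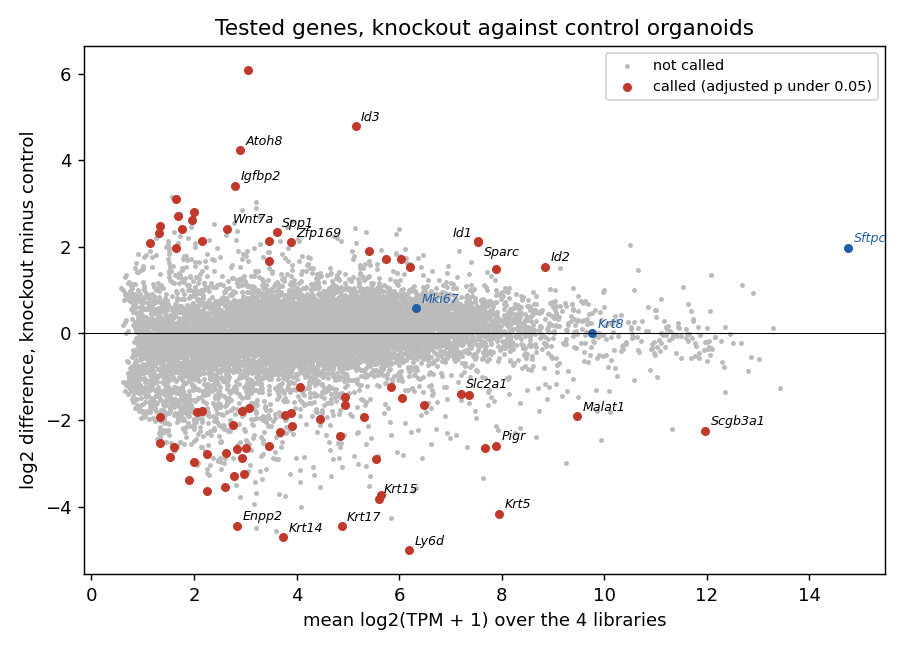
Log2 difference, knockout minus control, against the mean log2(TPM + 1) over the 4 libraries, with 1 point per tested gene. The 75 genes that passed are in red, 27 above and 48 below 0; Sftpc, Krt8 and Mki67, in blue, did not pass.

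Among the genes that rose were 3 ID genes, and Id3 had the smallest p of all genes that rose. The ID proteins bind basic helix-loop-helix transcription factors and keep them from DNA, and their genes are direct targets of bone morphogenetic protein (BMP) signalling in many cell types. Id3 stood at 6.36 and 5.19 TPM in the controls and at 191.7 and 180.9 TPM in the knockouts. It rose by 4.79 ± 0.13 (SE) on the log2 scale (adjusted p 0.0105, n = 2 per genotype, limma). Id1 stood at 80.2 and 96.9 TPM in the controls and at 363.9 and 403 TPM in the knockouts, a log2 difference of 2.11 ± 0.14 (limma adjusted p 0.0317). Id2, also a known regulator of lung tip progenitors, stood at 267.7 and 269.4 TPM in the controls and at 804.1 and 764.1 TPM in the knockouts, a log2 difference of 1.54 ± 0.10 (limma adjusted p 0.0317). For each of the 3 genes the genotypes were far apart and the 2 controls close together, control 2 included.

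Of 22 tested ID and BMP genes, 3 rose, 0 fell and 19 did not pass. Both knockouts lay above both controls for 10 of the 22 and below them for 9, where 39.6% and 32.0% of all tested genes did so (71.7% in either direction). The median log2 difference was 0.04, or -0.02 against control 1 alone, beside 0.06 and 0.03 over all genes. The ligand gene Bmp4 stood at 83 and 43.6 TPM in the controls and at 130.7 and 123.2 TPM in the knockouts, and the receptor gene Bmpr2 at 21.2 and 22.5 TPM against 20.5 and 15.5 TPM. Neither passed. Smad9, a receptor-activated signal transducer of the pathway, went from 0.07 and 0.06 TPM to 2.34 and 1.82 TPM without passing (adjusted p 0.06). Bmp4, Bmpr2 and Smad9 were singled out after their values were seen.

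Atoh8, itself a basic helix-loop-helix transcription factor gene, was at 1.06 and 0.42 TPM in the controls and at 30.7 and 31.9 TPM in the knockouts. Its log2 difference was 4.24 ± 0.22 (limma adjusted p 0.0296). Igfbp2, an insulin-like growth factor binding protein that is also used as an AT1 marker, was at 1.27 and 1 TPM in the controls and at 26.9 and 17.6 TPM in the knockouts. It rose by 3.42 ± 0.25 on the log2 scale (limma adjusted p 0.0317). Both genes went from near the detection filter to clearly present levels in both knockout libraries.

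Several secreted and signalling molecules rose too. The WNT ligand gene Wnt7a was at 1.95 and 1.47 TPM in the controls and at 14.4 and 12.6 TPM in the knockouts. Spp1, which encodes the matrix protein osteopontin, was at 4.02 and 4.88 TPM in the controls and at 29.2 and 23.9 TPM in the knockouts. Sparc, a collagen-binding matrix protein, was at 95.1 and 82.3 TPM in the controls and at 424 and 358.5 TPM in the knockouts. Their log2 differences were 2.43 ± 0.17 for Wnt7a, 2.34 ± 0.17 for Spp1 and 2.13 ± 0.14 for Sparc, each at a limma adjusted p of 0.0317. Ankrd1, a widely used target gene of the Hippo pathway effector YAP, was at 0.36 and 0.60 TPM in the controls and at 6.87 and 6.90 TPM in the knockouts (log2 2.42 ± 0.18, limma adjusted p 0.0335). The remaining genes of the 12 largest rises were Cltrn, which encodes the amino acid transporter partner collectrin, the paralemmin gene Palm3, the metalloproteinase gene Mmp23, R3hdml, Fam83a and Atp6v0c-ps2. Of these, Cltrn, Palm3, R3hdml and Mmp23 lay below 1 TPM in both controls and between 6.84 and 9.71 TPM in the knockouts. Fam83a was at 4.73 and 3.77 TPM in the controls and at 22.1 and 22.0 TPM in the knockouts.

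Atp6v0c-ps2 is annotated as a processed pseudogene at chr6:37806086-37806550 and was listed at 0 TPM in both controls and at 51.9 and 86.6 TPM in the knockouts. It was also listed at 0 in all 6 libraries of fresh AT2 cells. Its parent gene Atp6v0c, a proton pump subunit picked after its values were seen, stood at 291.7 and 260.9 TPM in the controls and at 395.2 and 348.7 TPM in the knockouts and did not pass (adjusted p 0.10). A pseudogene and its parent share sequence, so the division of reads between them is uncertain, and an exact 0 can come from how shared reads were assigned.

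Zfp169, which encodes a zinc finger protein, is named here for its position and was chosen after its values were seen. Its gene model (chr13:48487647-48513451, minus strand) lies 22560 bases from the deleted cluster, with its 5′ end nearer. Zfp169 stood at 5.65 and 6.63 TPM in the controls and at 31.0 and 28.3 TPM in the knockouts. It rose by 2.11 ± 0.14 on the log2 scale (limma adjusted p 0.0317). In fresh AT2 cells it rose as well, from 0.55 to 0.62 TPM in the 3 controls to 7.03 to 13.01 TPM in the 3 knockouts. Its difference was thus present in organoids and in fresh AT2 cells.

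**Figure D2:**
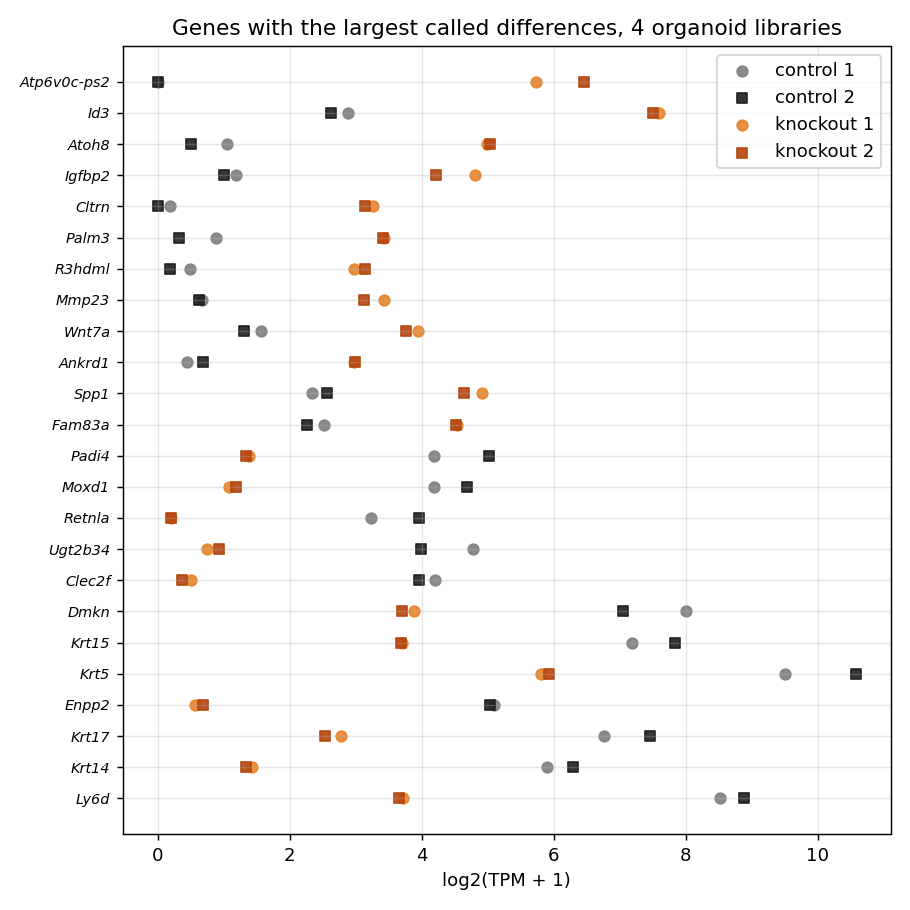
Level of the 12 genes with the largest rises and the 12 with the largest falls in each of the 4 organoid libraries, as log2(TPM + 1); circles are replicate 1 and squares replicate 2. No overlap between the genotypes was a condition for naming these 24 genes (71.7% of all tested genes do not overlap), and control 2 is the higher control for Krt5, Krt14, Krt15 and Krt17.

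The largest falls included genes of basal cells, the stem cells of the conducting airway, which are defined by keratins and the transcription factor p63. Ly6d, a surface protein of squamous and basal epithelium, stood at 363.6 and 470 TPM in the controls and at 12.1 and 11.6 TPM in the knockouts. It fell by 5.01 on the log2 scale (SE 0.16, limma adjusted p 0.0105). Krt14 stood at 58.3 and 77.0 TPM in the controls and at 1.69 and 1.51 TPM in the knockouts, and fell by 4.71 (SE 0.18, limma adjusted p 0.0182). Both Krt14 and Krt5 encode keratins that assemble as partners in the basal cell cytoskeleton. Krt5 stood at 720.5 and 1521 TPM in the controls and at 54.9 and 59.8 TPM in the knockouts, and fell by 4.17 (SE 0.38, limma adjusted p 0.0474). Against control 1 alone the differences were -4.82 for Ly6d, -4.51 for Krt14 and -3.63 for Krt5. The keratin genes Krt17 (106.9 and 174.7 TPM against 5.85 and 4.80 TPM) and Krt15 (144.3 and 227.5 TPM against 12.04 and 11.8 TPM) fell, with log2 differences of -4.45 and -3.82.

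Of 15 tested basal cell genes, 0 rose, 6 fell and 9 did not pass. Both knockouts lay below both controls for 12 of them and above for 1, beside 32.0% and 39.6% of all tested genes. The median log2 difference was -3.08, -2.61 against control 1 alone, beside 0.06 and 0.03 over all genes. The sixth gene that fell, Dapl1, named after its values were seen, stood at 108.3 and 151.5 TPM in the controls and at 13.01 and 20.1 TPM in the knockouts. Trp63, which encodes p63 and was singled out after its values were seen, stood at 34.8 and 93.6 TPM in the controls and at 6.14 and 5.61 TPM in the knockouts without passing (adjusted p 0.0657). The list's summed level was 3068 and 4384 TPM in the controls and 1661 and 1526 TPM in the knockouts. Most of that sum in the knockouts is Bcam (1067 and 983 TPM), an adhesion gene that is not restricted to basal cells and was at 807.8 and 452.2 TPM in the controls. In bulk RNA, fewer cells of a type and less RNA per cell cannot be told apart.

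Airway secretory genes were lower as well. Scgb3a1, a secretoglobin of airway secretory cells, stood at 7670 and 9960 TPM in the controls and at 1690 and 2009 TPM in the knockouts, and fell by 2.25 on the log2 scale (SE 0.21, limma adjusted p 0.0474). Hp, the haemoglobin scavenger haptoglobin, stood at 276.3 and 261.6 TPM in the controls and at 99.2 and 99.4 TPM in the knockouts, and fell by 1.43 (SE 0.10, limma adjusted p 0.0317). Of 18 tested club and goblet cell genes, 0 rose, 2 fell and 16 did not pass. Both knockouts lay below both controls for 14 and above for 1, beside 32.0% and 39.6% of all tested genes. The median log2 difference was -1.40, or -1.05 against control 1 alone. Bpifa1, an antimicrobial airway protein and the most abundant gene of the list, stood at 10029 and 8127 TPM in the controls and at 5972 and 6485 TPM in the knockouts (adjusted p 0.127). The list's summed level was 23832 and 37912 TPM in the controls and 10282 and 11601 TPM in the knockouts.

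Genes of ciliated cells were low in every library and lower in the knockouts, with no gene of 12 passing the test. Foxj1, the master transcription factor gene of motile cilia, stood at 13.5 and 27.7 TPM in the controls and at 3.84 and 2.30 TPM in the knockouts (adjusted p 0.0676); it was singled out after its values were seen. Both knockouts lay below both controls for 10 of the 12, where 32.0% of all tested genes did so. The median log2 difference was -1.87, or -1.53 against control 1 alone. Tubb4b, a tubulin gene that dividing cells also use, was the exception, with 545.7 and 564.6 TPM in the controls and 754.8 and 878.2 TPM in the knockouts.

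The other genes among the 12 largest falls are not on these lists. Enpp2, which encodes the lysophosphatidic acid producing enzyme autotaxin, stood at 33.3 and 31.8 TPM in the controls and at 0.48 and 0.61 TPM in the knockouts. It fell by 4.44 on the log2 scale (SE 0.14, limma adjusted p 0.0105), with the 2 controls nearly equal. Dmkn, a secreted protein of stratified epithelium, stood at 256.2 and 130.7 TPM in the controls and at 13.7 and 11.96 TPM in the knockouts, and fell by 3.74 (SE 0.35, limma adjusted p 0.0478). Clec2f, annotated as a transcribed pseudogene of the C-type lectin family, the glucuronosyltransferase gene Ugt2b34, the resistin-like gene Retnla, the monooxygenase gene Moxd1 and the peptidylarginine deiminase gene Padi4 fell, with log2 differences of -3.64 to -3.24. Each of these 5 stood between 8.41 and 31.2 TPM in the controls and between 0.15 and 1.60 TPM in the knockouts. Clec2f, Ugt2b34, Retnla and the basal keratins belong to families of similar genes, whose shared reads the authors' counting could split, so their single values carry that uncertainty.

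**Figure D3:**
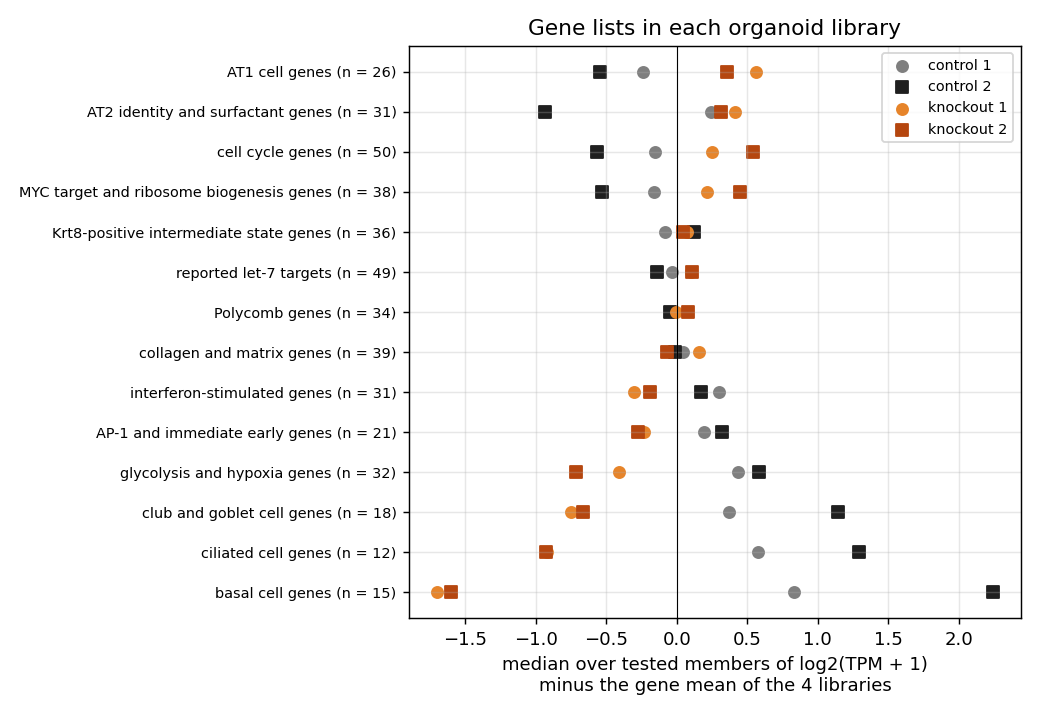
Median over the tested members of 14 gene lists of log2(TPM + 1) minus each gene's mean of the 4 libraries, 1 point per library. Control 2 is the lowest library for AT2 and cell cycle genes and the highest for basal, ciliated and club genes, and the 2 knockouts lie on the same side of both controls for these lists.

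The lists of cell cycle genes and of MYC target and ribosome biogenesis genes had higher medians in the knockouts, with no single gene passing. Of 50 cell cycle genes, 47 had both knockouts above both controls and 2 had both below (39.6% and 32.0% of all tested genes). None (0) of the 50 passed in either direction. Their median log2 difference was 0.78, or 0.57 against control 1 alone. Mki67, the marker of cycling cells, stood at 77.8 and 53.4 TPM in the controls and at 90.9 and 104.5 TPM in the knockouts (adjusted p 0.133), and Pcna, the replication clamp, at 276 and 216.5 TPM against 349.3 and 390.4 TPM (adjusted p 0.0898). Of 38 MYC target and ribosome biogenesis genes, 36 had both knockouts above both controls and 0 had both below, with a median of 0.67, or 0.50 against control 1 alone. Ncl, which encodes the nucleolar protein nucleolin and was picked after its values were seen, stood at 117.2 and 114.5 TPM in the controls and at 170.3 and 195.3 TPM in the knockouts (adjusted p 0.0699). The most abundant members, Npm1 and Ldha, differed by -0.01 and 0.14. The 36 ribosomal protein genes had a median of -0.07, with 0 passing, 7 above and 14 below both controls. Myc itself stood at 18.99 and 27.3 TPM in the controls and at 13.02 and 17.5 TPM in the knockouts and did not pass (adjusted p 0.169).

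Genes of glucose use and of the response to low oxygen were lower. Slc2a1, the glucose transporter GLUT1, stood at 240.2 and 235.2 TPM in the controls and at 91.3 and 88.6 TPM in the knockouts, and fell by 1.39 on the log2 scale (SE 0.10, limma adjusted p 0.0317). Of the 32 members tested, 1 fell and 0 rose, leaving 31 that did not pass. Both knockouts lay below both controls for 29 and above for 2, beside 32.0% and 39.6% of all tested genes. The median log2 difference was -0.94, and -0.90 against control 1 alone. The size was uneven within the list. The carbonic anhydrase gene Car12 (38.6 and 118.8 TPM against 3.47 and 3.05 TPM) and the hypoxia-induced gene Ndrg1 (162 and 394.9 TPM against 20.2 and 7.11 TPM) differed by -4.02 and -4.28 without passing (adjusted p 0.06 and 0.0636), and were picked after their values were seen. The abundant glycolytic enzyme gene Gapdh differed by -0.22 (6087 and 6505 TPM against 5958 and 4897 TPM), and Ldha, which encodes lactate dehydrogenase A, by 0.14.

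AT2 identity genes depended on which control was used. Of 31 tested genes, 0 passed. Both knockouts lay above both controls for 18 and below for 2, beside 39.6% and 32.0% of all tested genes. The median log2 difference was 0.71. Against control 1 alone the median was 0.12, and against control 2 alone 1.29. Sftpc differed by 1.98 ± 0.72 (adjusted p 0.131, limma), by 0.97 against control 1 and by 3.00 against control 2. The surfactant protein gene Sftpb stood at 6942 and 2851 TPM in the controls and at 9293 and 10069 TPM in the knockouts (adjusted p 0.158). These genes were lower in control 2, where basal and airway genes were at their highest, and the part of that makeup in the AT2 result was not tested.

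The median of AT1 genes was higher in the knockouts whichever control was used, with members in both directions. Of 26 tested genes, 1 rose (Igfbp2), 0 fell and 25 did not pass. Both knockouts lay above both controls for 18 and below for 4, beside 39.6% and 32.0% of all tested genes. The median log2 difference was 0.85, with 0.77 against control 1 and 0.93 against control 2 alone. Hopx, a homeodomain gene of AT1 cells, stood at 129.7 and 136.9 TPM in the controls and at 295.9 and 190.8 TPM in the knockouts (adjusted p 0.0929). Ager, the receptor gene most used as an AT1 marker, stood at 548.2 and 201.9 TPM in the controls and at 1152 and 789.3 TPM in the knockouts (adjusted p 0.125), and Clic5, a chloride channel gene, at 23.6 and 13.2 TPM against 75.9 and 52.6 TPM (adjusted p 0.0701). The caveolin genes Cav1 (36.6 and 172.6 TPM against 17.5 and 13.7 TPM) and Cav2 (229.5 and 365.4 TPM against 135.9 and 148.8 TPM) lay lower in the knockouts without passing (adjusted p 0.116 and 0.0788). Ager, Clic5, Cav1 and Cav2 were picked after their values were seen. The abundant AT1 genes Aqp5, a water channel, and Tspan8, a tetraspanin, differed by 0.21 and 0.70 and did not pass.

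The Krt8-positive intermediate state showed no shared direction. Of 36 tested genes, 0 passed. Both knockouts lay above both controls for 14 and below for 14, beside 39.6% and 32.0% of all tested genes. The median log2 difference was 0.05, or 0.16 against control 1 alone. Krt8 stood at 840.1 and 893.3 TPM in the controls and at 865.2 and 875.6 TPM in the knockouts, a log2 difference of 0.01 ± 0.11 (adjusted p 0.97, limma). The most abundant members were Clu, the chaperone clusterin, at 946.8 and 543.8 TPM against 2820 and 3107 TPM (adjusted p 0.0616), and Anxa2, which differed by 0.10.

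The alveolar transcription factor list held 33 tested genes, of which 1 rose (Id2) and 0 fell, with a median of 0.27. Cebpa, needed for AT2 differentiation, stood at 260.3 and 129.8 TPM in the controls and at 348.8 and 369.7 TPM in the knockouts (adjusted p 0.134). Among 22 WNT genes, 1 rose (Wnt7a) and 0 fell, and Ctnnb1, the pathway's beta-catenin, differed by 0.04. Among 21 Notch and Hippo genes, 1 rose (Ankrd1) and 0 fell, and the Notch target gene Hes1 differed by -0.50 (adjusted p 0.292). Their medians were 0.07 and 0.02. Against control 1 alone the 3 medians were 0.23, 0.02 and -0.04. In each of these 3 lists a single gene passed, where 0.605% of all tested genes did so.

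Of 58 reported let-7 targets, 49 were tested and 0 passed. Both knockouts lay above both controls for 25 and below for 15, beside 39.6% and 32.0% of all tested genes. The median log2 difference was 0.23, or 0.20 against control 1 alone. Hmga2, a chromatin protein gene and the best known target, stood at 2.50 and 11.04 TPM in the controls and at 0.88 and 0.74 TPM in the knockouts (log2 -1.85 ± 0.63, adjusted p 0.119). Igf2bp3 and Lin28b stood at or below 0.05 TPM in all 4 libraries and were not tested. Ezh2, the histone methyltransferase of Polycomb complex 2, stood at 23.0 and 23.2 TPM in the controls and at 35.5 and 39.3 TPM in the knockouts (log2 0.67 ± 0.11, adjusted p 0.0668). Bach1, a repressor of haem and oxidant defence genes, stood at 26.4 and 22.1 TPM against 19.2 and 19.2 TPM (adjusted p 0.17). The most abundant members, the cyclin gene Ccnd1 and the thrombospondin gene Thbs1, differed by 0.39 and 0.67 and did not pass.

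Sites for the microRNAs of the deleted cluster were read from the longest annotated 3′ UTR of each gene. The site searched is the 8mer CTACCTCA, which pairs with bases 2 to 8 of the seed and ends in an A. It was searched on the transcript strand only. The following genes are examples and not a ranking: reported targets that hold the site, and genes that hold the site and passed the test. All but Hmga2 and Bach1 were picked after their values were seen. Igf2bp1 and Bach1 hold further such sites, and only the first in the UTR is shown. Each window has 28 bases of the transcript (GENCODE M21, GRCm38), with the 8mer in capitals.
Igf2bp1 (chr11:95961772-95961799, minus strand): ctgtgcgaagtaaaCTACCTCAaggtgt
Cdc34 (chr10:79688113-79688140, plus strand): cctcaggcgacagaCTACCTCAccgagg
E2f6 (chr12:16826404-16826431, plus strand): tcacctagcgctctCTACCTCAgtgggt
Ddx19a (chr8:110975898-110975925, minus strand): tgagtagagactacCTACCTCAttcgga
Hmga2 (chr10:120364218-120364245, minus strand): ccgacattcaatttCTACCTCAgcatca
Bach1 (chr16:87731986-87732013, plus strand): agccaatggatttcCTACCTCActggac
Bhlhe41 (chr6:145859204-145859231, minus strand): taatatgctcactcCTACCTCAagtgcc
Hif3a (chr7:17035729-17035756, minus strand): agccagccacagtcCTACCTCAgccccc
Map3k1 (chr13:111746735-111746762, minus strand): tattccagtttctaCTACCTCAggtgtc

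The genes with these sites moved in both directions. Igf2bp1, an RNA-binding protein gene with 3 such sites, stood at 0.12 and 0.14 TPM in the controls and at 1.98 and 2.03 TPM in the knockouts (adjusted p 0.06). Cdc34, a ubiquitin-conjugating enzyme of the cell cycle, stood at 80.5 and 86.1 TPM in the controls and at 147.6 and 161.2 TPM in the knockouts (adjusted p 0.0577). E2f6, a transcriptional repressor gene, and Ddx19a, an RNA helicase gene, differed by 0.61 and 0.70 (adjusted p 0.0701 and 0.0667). For these 4 genes, picked after their values were seen, both knockouts lay above both controls, as for 39.6% of all tested genes. None of the 4 passed. The 3 site genes that passed all fell, though with a pseudocount of 0.1 none of the 3 passed (adjusted p 0.0504 to 0.0517), nor with quantile normalization (adjusted p 0.0593 to 0.0597). The circadian repressor gene Bhlhe41 stood at 3.74 and 4.09 TPM in the controls and at 0.32 and 0.25 TPM in the knockouts, and the hypoxia-induced repressor gene Hif3a at 14.7 and 11.8 TPM against 2.63 and 1.91 TPM. Map3k1, a stress kinase gene, stood at 23.8 and 25.6 TPM in the controls and at 9.97 and 9.93 TPM in the knockouts. They fell by 1.93 (SE 0.18), 2.13 (SE 0.20) and 1.23 (SE 0.12), at limma adjusted p of 0.0486, 0.0481 and 0.0486.

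Of 431 tested genes with an 8mer, 0 rose and 3 fell, where 0.218% and 0.387% of all tested genes did so. The median log2 difference of the 431 was 0.09. The median was 0.07 over the 9803 tested genes with neither 7mer (CTACCTC or TACCTCA) and 0.06 over all tested genes. In the fit without control 2 the median was 0.04 with an 8mer and 0.05 with neither 7mer, and without control 1 it was 0.15 and 0.12. With a pseudocount of 0.1, 0 of the 431 genes passed by limma, and with median-ratio scaling 1 did. With either 7mer as the site, 1969 genes had a median of 0.08. Of 34 Polycomb genes, 0 passed, and the median was 0.05, or 0.03 against control 1 alone; Rbbp7 and Phc2, the most abundant, differed by 0.23 and 0.19.

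The lists of inflammatory, interferon and early response genes had medians below that of all genes. Of 28 tested chemokine, cytokine and acute phase genes, 0 rose and 2 fell, Hp and the mucosal chemokine gene Cxcl17. Cxcl17 stood at 70.5 and 83.3 TPM in the controls and at 22.1 and 17.2 TPM in the knockouts, and fell by 1.92 (SE 0.17, limma adjusted p 0.046). The most abundant members did not pass: Cxcl15, a lung chemokine gene, stood at 4824 and 1513 TPM in the controls and at 6879 and 7014 TPM in the knockouts, and Lcn2, the iron-binding protein lipocalin 2, at 3627 and 1353 TPM against 1083 and 1022 TPM. Both knockouts lay below both controls for 13 of the 28 and above for 5, beside 32.0% and 39.6% of all tested genes. The median of the 28 was -0.40, or -0.80 against control 1 alone. Of 31 interferon-stimulated genes, 0 passed, 19 had both knockouts below and 1 above, and the median was -0.41, or -0.50 against control 1 alone. Ifi27 stood at 59.2 and 91.1 TPM in the controls and at 35.8 and 27.3 TPM in the knockouts (adjusted p 0.0721), while Bst2, which tethers enveloped viruses, was at 69.4 and 53.2 TPM against 83.4 and 85.7 TPM. Of 21 AP-1 and immediate early genes, 0 passed, 12 had both knockouts below and 2 above, and the median was -0.44, or -0.45 against control 1 alone. Ier3, an early response survival gene, differed by -1.47 (adjusted p 0.0864), while Mcl1, also a survival gene, was at 136.7 and 135.7 TPM against 136.2 and 135.4 TPM. Other stress lists had no member that passed and medians of 0.13 over 28 unfolded protein and heat shock genes and 0.21 over 32 BACH1 and NRF2 targets (0.02 and -0.02 against control 1 alone).

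MHC class II genes, which AT2 cells express and which present antigen to helper T cells, turned on the choice of control. None (0) of 7 tested genes passed by limma. Their median log2 difference was -0.54, but -1.59 against control 1 and 0.51 against control 2 alone. Cd74, the invariant chain, stood at 637.4 and 126.1 TPM in the controls and at 270.3 and 177.8 TPM in the knockouts. H2-Ab1 stood at 170 and 95.1 TPM in the controls and at 21.4 and 13.3 TPM in the knockouts (log2 -2.84 ± 0.37, adjusted p 0.06), below both controls.

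Of 39 tested collagen and matrix genes, 2 rose (Sparc and Spp1), 1 fell and 36 did not pass. Over all tested genes 0.218% rose and 0.387% fell. The median of the 39 was 0.09, or 0.14 against control 1 alone. The gene that fell was Col16a1, a minor fibril-associated collagen, at 7.04 and 7.67 TPM in the controls and at 1.34 and 1.45 TPM in the knockouts (log2 difference -1.80 ± 0.16, limma adjusted p 0.0431). Of 27 TGF-beta and activin genes, 0 rose and 1 fell, beside the same shares of all tested genes. Their median was -0.21, or -0.17 against control 1 alone. Inhbb, the activin B subunit gene, stood at 39.4 and 45.3 TPM in the controls and at 11.3 and 8.99 TPM in the knockouts, and fell by 1.97 (SE 0.16, limma adjusted p 0.0401). Tgfb3, a ligand gene, stood at 52.1 and 54.5 TPM against 89.1 and 88.3 TPM without passing (adjusted p 0.06), and the receptor gene Tgfbr2 differed by -0.03.

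Most markers of cells that do not belong to epithelium were below the filter. The leukocyte gene Ptprc stood at 0.06 to 0.24 TPM and the endothelial gene Pecam1 at 0.05 to 0.13 TPM in the 4 libraries. Of 20 fibroblast and pericyte genes, 3 were tested, and their summed level was 44.6 and 21.01 TPM in the controls and 74.5 and 65.7 TPM in the knockouts; Npnt, which AT1 cells also express, made up most of it. Of 16 endothelial genes, 2 were tested, of 19 lymphocyte and neutrophil genes 2, of 10 mesothelial genes 3 and of 7 erythrocyte genes 0. The abundant members of these lists were Esam, an adhesion gene on the endothelial list, at 128.3 and 26.1 TPM in the controls and 81.8 and 71.3 TPM in the knockouts, and Msln, mesothelin, at 37.98 and 138.1 TPM against 77.7 and 86.6 TPM. Upk1b, on the mesothelial list, was at 10.01 and 83.7 TPM against 8.24 and 7.99 TPM, and the sum of that list was 49.9 and 228.9 TPM against 86.3 and 95.2 TPM. The part of such cells in the results was not tested. Ptprc, Pecam1, Cd3e, Cd3d and Upk1b were picked after their values were seen. Retnlg, on the lymphocyte and neutrophil list, was at 6.38 and 6.74 TPM in the controls and at 0.14 and 0.30 TPM in the knockouts, and fell by 2.63 (SE 0.18, limma adjusted p 0.0317), while the T cell receptor complex genes Cd3e and Cd3d were listed at 0 in all 4. Of 22 macrophage and monocyte genes, 7 were tested and 0 passed, and nearly all of the summed level was Lyz1, a lysozyme gene of epithelium too, whose close copy Lyz2 can share its reads. Lyz1 stood at 23400.4 and 12601 TPM in the controls and at 7370 and 6959 TPM in the knockouts.

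The same contrast in fresh AT2 cells, taken 6 days after the start of tamoxifen, shows which organoid differences were also present before culture. The tables were normalized separately, so effects rather than levels are set side by side. In fresh cells 950 of 12109 tested genes passed (7.85%), and the 2 effects differed for 1055 of 11351 genes tested in both (9.29%). Of the 75 genes that passed in organoids, 55 were tested in fresh cells and 9 of them passed there. Only 3 of these 9 moved in the same direction, namely Zfp169 (2.11 in organoids and 2.75 in fresh cells), Id1 (2.11 and 0.82) and Spp1 (2.34 and 1.13). The other 6 had opposite signs. Igfbp2 rose by 3.42 in organoids, while in fresh cells it was lower in the knockouts, at 16.7 to 27.0 TPM in controls and 6.27 to 12.3 TPM in knockouts (log2 -1.23 ± 0.24, limma adjusted p 0.0266). Inhbb fell by 1.97 in organoids and rose by 1.08 in fresh cells, and Dmkn fell by 3.74 and rose by 1.05. Fetub, Mgst2 and Rnf128 behaved like Inhbb.

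For 52 of the 55 genes the organoid effect differed from that in fresh cells, but the 55 were chosen by the same organoid effect, so this share is a description only. Id3 had the smallest p for this difference (adjusted p 2.53e-06), with a log2 effect of 4.79 in organoids and 0.29 in fresh cells, where it stood at 21.4 to 33.5 TPM in controls and at 25.5 to 41.7 TPM in knockouts. Ly6d, at -5.01 in organoids, had an effect of 0.47 in fresh cells. Its levels there were 7.54 to 12.1 TPM in controls and 10.4 to 22.6 TPM in knockouts. Krt5 was at 0.77 to 10.1 TPM in control and at 4.80 to 10.2 TPM in knockout fresh cells, and its effects in the 2 kinds of sample differed by -5.10. The 3 genes whose effects were not told apart between the 2 kinds of sample include Zfp169.

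**Figure D4:**
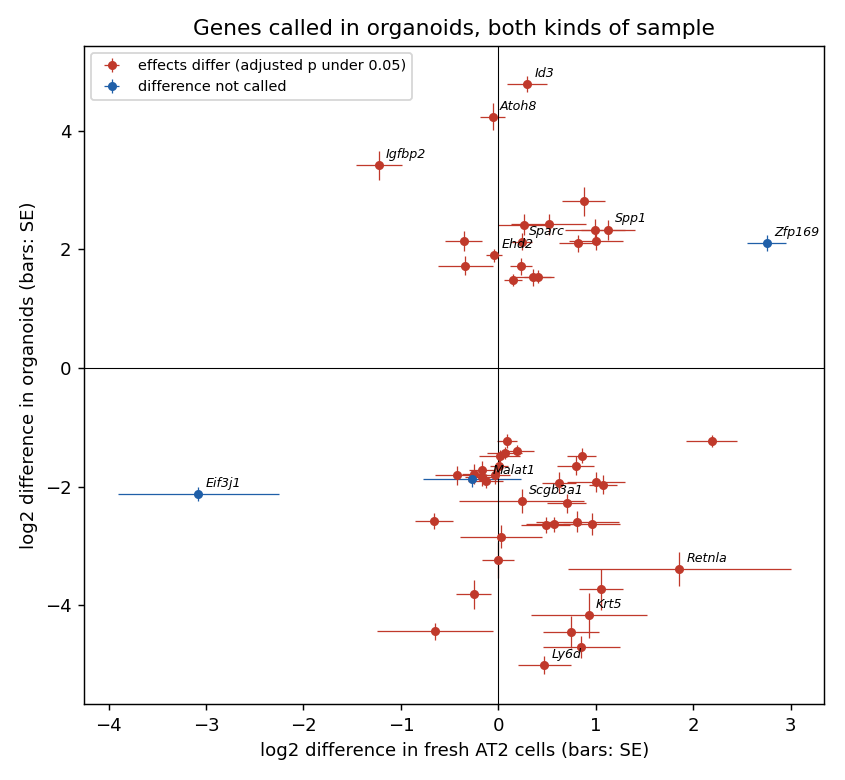
Log2 difference, knockout minus control, in organoids against that in fresh AT2 cells for the 55 genes that passed in organoids and were tested in both; bars are SE. The difference between the effects passed for 52 genes, in red, and Zfp169 lies at 2.75 and 2.11.

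Orm1, an acute phase gene, showed the largest contrast among the genes named for this difference. It stood at 19.8 and 14.5 TPM in control and at 2.81 and 1.58 TPM in knockout organoids (log2 -2.52 ± 0.27, adjusted p 0.0528). In fresh cells it went from 3.03 to 7.02 TPM in controls to 45.7 to 73.2 TPM in knockouts (log2 3.35, limma adjusted p 0.0023). Hopx went the other way, with a log2 effect of 0.83 in organoids and -0.68 in fresh cells (adjusted p 0.0195 for the difference). Cell cycle genes had medians of 0.78 over 50 genes in organoids and 0.72 over 49 genes in fresh cells. The medians over all tested genes were 0.06 and 0.08. In organoids 0 of the 50 passed. In fresh cells 39 of the 49 rose and 0 fell, beside 802 and 148 of all 12109 tested genes.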

How the data were processed

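Poly(A)-selected, non-stranded TruSeq libraries were sequenced from mouse AT2 organoids and sorted AT2 cells, per the labels' protocols. Reads of antisense partners are thus not separable. The authors deposited TPM values per gene, and the submitters' processing notes name GRCm38. Which aligner and quantifier were used is not given in the sources here. TPM carry no read numbers, so no counting error or depth can be given, and no batch is labelled. Of 24972 rows, 2 that repeated a symbol were left out, and 24464 of 24970 symbols matched GENCODE M21.

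Organoid and AT2 tables were fitted separately on log2(TPM + 1) using limma 3.58.1 (R 4.3.3), a model of genotype alone, a variance trend and two-sided tests. Adjusted p are Benjamini-Hochberg values over all genes tested, which needed 1 TPM in at least 2 organoid or 3 AT2 libraries. Differences between the 2 kinds of sample used the SE of both fits (11351 genes). Fold changes on this scale understate the change of low genes. On simulated data with independent noise for each gene, the mean estimated size was close to that of the changes put in. On the same data the test of differences made more false calls than its threshold allows. Lists are described by counts and medians only. Their counts of members that passed stand against 0.218% higher and 0.387% lower of all genes tested in organoids. 3′ UTRs of at least 50 bases were searched for sites in 20659 genes.

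Named genes were the 12 largest rises and falls among genes that passed, did not overlap between genotypes and reached 5 TPM (predicted genes left out); up to 4 members that passed and the 2 most abundant members of each list described; Ezh2, Myc, Mki67, Hmga2, Lin28b, Igf2bp3, Bach1, Krt8, Hopx and Sftpc; and 4 genes per direction of the organoid minus AT2 difference. Genes outside this rule were picked after their values were seen. The members and lists were chosen with earlier results of these data known. Alternatives were fits without the filter or with one at 5 TPM, a pseudocount of 0.1, quantile normalization, scaling by median ratios, a fit without the variance trend, 7mer sites, a block for the replicate number and fits without each library in turn. Whether the replicate numbers pair the organoid libraries is not known. The correlation of deviations of same-numbered libraries was -0.07 over 12406 genes, which cannot settle it with 2 libraries per genotype. Whole-lung tables were not used here.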

Additional observations from a re-analysis of the deposited data

Results flagged for a closer look

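For 48 named genes the knockout effect in organoids differed from that in fresh AT2 cells at an adjusted p under 0.05. Among all 11351 genes tested for this difference, 1055 passed (9.29%). Many named genes were chosen by their organoid effect, by this same difference or after their values were seen. The count of 48 is therefore a description only. On simulated data this test made more false calls than its threshold allows. The values below are the organoid effect minus the AT2 effect on the log2 scale. Culture, time since deletion and the makeup of the samples changed together between the 2 kinds of sample and cannot be told apart.

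Among the transcription regulators, the difference was 4.5 for Id3, 1.29 for Id1, 1.14 for Id2, 4.3 for Atoh8 and 1.51 for Hopx. Among signalling and matrix genes it was 4.64 for Igfbp2, 2.06 for Igfbp7, 1.91 for Wnt7a, 1.21 for Spp1, 1.89 for Sparc and 0.659 for Tgfb3. For Hippo, membrane and cytoskeletal genes it was 2.16 for Ankrd1, 1.94 for Palm3, 1.14 for Fam83a, 1.95 for Ehd2, 2.49 for Akap2, 1.34 for Anxa5 and 1.48 for Mal. All of these effects were more positive in organoids.

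The basal and airway genes were more negative in organoids. The difference was -5.48 for Ly6d, -5.56 for Krt14, -5.2 for Krt17, -5.1 for Krt5, -3.56 for Krt15, -4.79 for Dmkn, -2.49 for Scgb3a1 and -3.41 for Pigr. Among secreted, inflammatory and acute phase genes it was -5.86 for Orm1, -1.49 for Hp, -3.21 for Cp, -2.93 for Cxcl17, -2.48 for Lcn2, -5.25 for Retnla, -3.59 for Retnlg, -2.17 for Cd14 and -1.69 for Ifi27. For the antigen presentation genes H2-Ab1 and H2-Q7 it was -2.44 and -2.99, and for the pseudogene H2-K2 -1.38.

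The remaining differences were -3.79 for Enpp2, -3.24 for Padi4, -1.58 for Slc2a1, -1 for Gapdh, -1.77 for Col16a1, -3.04 for Inhbb, -2.33 for Mgst2, -1.78 for Malat1, -2.56 for Bhlhe41 and -1.32 for Map3k1. Of the 48 genes, Lcn2, Cd14, Ifi27, H2-Ab1, Orm1, Gapdh, Hopx and Tgfb3 did not pass in organoids on their own.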

How the results depend on the processing

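Against the 27 higher and 48 lower genes, no filter gave 0 and 0 (5170 at an unadjusted p under 0.05), with 17496 genes tested. Quantile normalization gave 22 and 25, no variance trend 67 and 116, and the replicate block 122 and 277, which kept all 75 calls. Leaving out a library gave 0 to 3821 higher and 0 to 2622 lower genes, and 0 to 544 list members against 21. In fresh AT2 cells (802 and 148), no filter gave 340 and 30, median-ratio scaling 420 higher, quantile normalization 399 higher and no trend 86 lower, and leaving out a library gave 183 to 888 higher and 7 to 282 lower. The effects differed upward for 365 and downward for 690 genes. The upward count was 614 with median-ratio scaling, 572 with quantile normalization and 211 with the block, and leaving out a library gave 3 to 2505 upward and 31 to 2228 downward. Median-ratio scaling moved the median of all genes from 0.06 to 0.03.

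Among named genes that did not pass, the direction turned for Cd74 (-1.53 to 0.79 over the left-out libraries), Esam (-0.74 to 1.52) and Msln (-0.74 to 1.09). It also turned for genes with small differences, such as Krt8 (0.05 against control 1 alone and -0.04 against control 2 alone) and Npm1 (0.07 and -0.09). Of the lists, 12 had medians that turned. Of lists with a member that passed, these were ID and BMP genes (-0.10 at 5 TPM, -0.19 to 0.43 with a library left out), Notch and Hippo genes (-0.008824 with median-ratio scaling, -0.0641 to 0.0514) and collagen and matrix genes (-0.14 to 0.38). Among lists with none that passed, MHC class II genes went from -0.54 to 0.51 without control 1. The cause was not tested. None of the 53 named genes that passed changed direction under any setting. With a library left out this was fixed in advance, since these genes did not overlap between the genotypes. With a pseudocount of 0.1, 45 of the 53 still passed, with median-ratio scaling 46 and with quantile normalization 36. Krt5 was not among them in the scaled fits (adjusted p 0.0523 and 0.0522), nor was Scgb3a1 (0.0554 and 0.0532). The unknown depth and 2 libraries per genotype limit what can be told of low genes.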

Other observations

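Several genes that passed lie outside the lists and the naming rule and were picked after their values were seen. Pigr, the receptor that carries antibodies across mucosal epithelium, stood at 527.4 and 645.2 TPM in the controls and at 107.4 and 85.1 TPM in the knockouts, and fell by 2.60 on the log2 scale (SE 0.18, limma adjusted p 0.0317). Cp, the copper-carrying ferroxidase ceruloplasmin, stood at 518.7 and 506.8 TPM in the controls and at 74.3 and 89.4 TPM in the knockouts, and fell by 2.64 (SE 0.13, limma adjusted p 0.0296). Both are products of airway and inflamed epithelium, and their levels in the 2 controls were close together. The hormone gene Stc1 (64.0 and 65.5 TPM against 13.5 and 10.2 TPM) and the mucin gene Muc2 (11.1 and 11.9 TPM against 1.15 and 0.52 TPM) fell, with log2 differences of -2.36 and -2.79. Reg1, a secreted lectin gene, was at 4.97 and 5.23 TPM in the controls and at 0 and 0.11 TPM in the knockouts.

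Other genes that rose were picked in the same way, except Ehd2 and Akap2, which the naming rule gave for their difference from fresh cells. Anxa5, a phospholipid-binding annexin, stood at 147.3 and 135 TPM in the controls and at 390.3 and 403.2 TPM in the knockouts, a log2 difference of 1.49. Ehd2, which stabilises caveolae, stood at 21.9 and 20.2 TPM in the controls and at 83.4 and 79.3 TPM in the knockouts, a log2 difference of 1.90. Igfbp7 (31.5 and 38.6 TPM against 128.1 and 108 TPM), Mal (29.3 and 28.1 TPM against 106.1 and 87.5 TPM) and the anchoring protein gene Akap2 (1.29 and 0.95 TPM against 8.38 and 8.20 TPM) also passed.

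Malat1, a long nuclear RNA of chr19, stood at 1361 and 1402 TPM in the controls and at 380.9 and 354.6 TPM in the knockouts, and fell by 1.91 (SE 0.11, limma adjusted p 0.0317). In fresh AT2 cells its log2 effect was -0.13 (adjusted p 0.678). The difference between the 2 effects was -1.78.

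Eif3j1 and Eif3j2, near-identical copies of a translation initiation factor gene, differed in opposite directions. Eif3j1 stood at 29.5 and 31.2 TPM in the controls and at 6.36 and 5.99 TPM in the knockouts and fell by 2.13 (limma adjusted p 0.0317), while Eif3j2 stood at 30.8 and 22.1 TPM against 77.0 and 86.8 TPM (adjusted p 0.0567). The division of reads between such copies is uncertain. The class I histocompatibility gene H2-Q7 (26.2 and 28.5 TPM against 5.52 and 4.21 TPM) and H2-K2, annotated as a transcribed pseudogene of that family (6.39 and 7.11 TPM against 1.27 and 1.16 TPM), fell, with log2 differences of -2.28 and -1.81, and these too belong to a family whose members share reads and differ between mouse strains.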
